A study of Mus musculus with 4 samples.

Results

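Arterial endothelial cells line the vessels that carry blood from the heart's arteries towards its capillaries. Here they were 1030 cells of 26765 cell barcodes in single-cell RNA sequencing of mouse hearts. Barcodes were kept with at least 1000 UMIs (unique molecular identifiers, each counting 1 captured RNA molecule) and at most 20% of UMIs from mitochondrial genes, which left 21581. Endothelial cells had at least 4 UMIs of Pecam1, Cdh5 and Egfl7 together, and at most 1 of the endocardial genes Npr3 and Cytl1. They also had at most 3 UMIs together of 6 genes of fibroblasts (Dcn), macrophages (C1qa, C1qb and C1qc) and pericytes (Kcnj8 and Vtn). Of these 6867 endothelial cells, the 15% with the highest share of UMIs from Sema3g, Stmn2, Hey1, Alpl, Sox17 and Efnb2 were taken in each library as arterial, and the other 5837 were the comparison. The cells were therefore chosen by these measured values, and their number per library follows from the 15% and not from the abundance of arteries.

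The mice were 6 weeks old. In the high_fibre group the dams ate a diet rich in resistant starch, a prebiotic fibre, during pregnancy and lactation, and in the control_diet group they ate a diet low in resistant starch. All offspring ate standard chow from weaning at 3 weeks. Each group had 2 libraries, and the labels give neither the number of hearts in a library nor the strain or sex, so the spread between libraries may be technical. Hearts were digested by perfusion with collagenase IV (2 mg/mL) and dispase II (1 mg/mL), and live, nucleated, metabolically active cells were sorted, so the values describe the cells that passed the sort. High_fibre 1 and 2 gave 246 and 342 arterial cells, and control_diet 1 and 2 gave 262 and 180. Their summed UMIs were 1243588 and 1684770 in high_fibre, against 1560111 and 1032303 in control_diet.

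Arterial identity in the endothelium is set by VEGF and Notch signalling: the ligands Dll4 and Jag1 on one cell activate Notch receptors on its neighbour, and RBPJ then switches on targets such as Hey1, Hey2 and Efnb2. SoxF factors such as Sox17 act beside this pathway, while the nuclear receptor Nr2f2 (COUP-TFII) holds the venous fate. Arterial cells join through the connexins Gja4 and Gja5, lie on elastic fibres, and release endothelin and nitric oxide, which set the tone of the smooth muscle around them.

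The cut fell in a continuum. The last arterial cell in each library held 16.2 and 14.5 marker UMIs per 10000 in high_fibre 1 and 2, and 14.0 and 12.7 in control_diet 1 and 2; the first cell left out held 16.2, 14.5, 14.0 and 12.6. Within 20% of the cut lay 225 arterial and 299 other cells. A median arterial cell had 12, 11, 13 and 12 marker UMIs in high_fibre 1, high_fibre 2, control_diet 1 and control_diet 2, the order used for 4 values throughout, and 10 of the 1030 had fewer than 3. When every cell was thinned to 1000 UMIs and the top 15% taken again, 65.0%, 68.7%, 65.3% and 68.9% of the arterial cells were chosen again. The median total was 4314.5, 4565, 5304 and 5275 UMIs in arterial cells, against 4801.5, 4670, 5691 and 6363 UMIs in the other endothelial cells.

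Libraries shared barcodes: 884 occurred in at least 2 libraries and 450 in all 4. Shared barcodes had a median of 17333 UMIs in control_diet 2, but of 656, 685 and 630 in high_fibre 1, high_fibre 2 and control_diet 1. Only 11 arterial cells, 8 of them in control_diet 2, had a shared barcode, and none was arterial in both libraries. Leaving these barcodes out kept all 10 diet calls described further on, but ended the call of Cxcl12 in the difference of diet effects (limma adjusted p = 0.0719).

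The label was checked against genes that did not choose the arterial cells, though the lists were chosen with earlier results of these data known. Of 14 other arterial markers, 14 were higher in arterial than in other endothelial cells in all 4 libraries, where 25.9% of all 8377 genes compared were, and 11 were at least 2-fold higher in all 4, where 0.919% of all genes were. The median log2 ratio of the list was 1.67, against 0.04 for all genes. Their summed level was 7106, 6325, 6499 and 7365 CPM (UMIs scaled to 1000000 per library and class) in arterial cells, against 2808, 2597, 2324 and 2421 in the others. All comparisons of arterial with other endothelial cells are descriptions without a test, since the cells were picked for their RNA. Pan-endothelial genes stood near each other in both classes (6 genes, median log2 ratio 0.13), but Pecam1, Cdh5 and Egfl7 among them had chosen the cells of both classes. The summed venous markers reached 316, 450, 478 and 408 CPM in arterial cells, against 598, 767, 807 and 758 in the others. Of 11 venous markers 7 reached 10 CPM, of which 3 were lower and 0 higher in arterial cells in all 4 libraries. The venous selectin Sele had 0 UMIs in arterial cells in each library, but only 12, 8, 18 and 1 in the others, so its 0 does not separate the classes. A count of 0 allows up to 2.41, 1.78, 1.92 and 2.91 CPM in the 4 sums of arterial cells.

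Marker RNA of other cell types was also counted, and whether arterial cells made it was not tested. Smooth muscle markers summed to 421, 172, 339 and 175 CPM in arterial cells, against 87.3, 192, 102 and 51.0 in the others, with Cnn1 at 0 in 3 of the 4 libraries. Pericyte markers summed to 725, 511, 806 and 397 against 137, 163, 175 and 124, and Rgs5 held most of that sum, with 647, 478, 713 and 384 in arterial cells. Kcnj8 and Vtn in this list were limited in each cell by the rule. Lymphatic markers summed to 789, 649, 322 and 859 against 872, 1356, 1157 and 540, so the rule did not keep lymphatic cells out. Doublet scores marked 6, 4, 5 and 0 arterial cells. The part of such RNA in the ratios of arterial to other cells was not tested.

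The 6 choosing genes contributed unequally. Stmn2, which codes for a microtubule-destabilising protein best known from neurons, gave 30.7%, 33.5%, 34.6% and 35.5% of the marker UMIs of arterial cells. Its level was 874, 911, 879 and 945 CPM in arterial cells, against 72.1, 95.8, 103 and 78.8 in the others. Without Stmn2 in the rule, 79.4% to 81.7% of the cells were chosen again, the lowest figures for any of the 6 genes. Sema3g, a secreted guidance cue, had 299, 288, 199 and 250.9 CPM against 18.0, 13.8, 12.5 and 16.6. The Notch target Hey1 had 480, 366, 344 and 374 against 47.3, 25.7, 31.1 and 22.6. Sox17 and Efnb2, the ephrin ligand of arterial cells, differed least, with mean log2 ratios of 2.19 ± 0.23 and 1.91 ± 0.08 (SD, n = 4 libraries).

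Connexins differed strongly. Gja4 (connexin 37; chr4:127311421-127314039, minus strand) had 153, 151, 142 and 139 CPM in arterial cells, against 7.55, 10.0, 10.9 and 5.91 in the other endothelial cells. Gja5 (connexin 40; chr3 in the same annotation, GENCODE M21 on GRCm38) had 49.9, 59.9, 27.6 and 56.2 in arterial cells, against 0.503, 0.681, 0.101 and 0.805 in the others. The classes did not overlap for either gene, and the control_diet 1 library had the lowest Gja5. A Gja4 UMI was found in 36.6%, 30.7%, 35.5% and 28.9% of arterial cells, against 2.36%, 3.1%, 4.38% and 3.03% of other endothelial cells. In macrophages, which should lack it and had median totals of 10003, 10364, 9807 and 13266 UMIs, the share was 0.938%, 1.29%, 0.146% and 0%, where 0 of 224 macrophages allows a share of up to 1.34% (3 counts of the total, counting error only). Gja1 (connexin 43), the connexin of many cell types, was near equal, with a mean log2 ratio of 0.14 ± 0.17 (SD, n = 4 libraries).

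**Figure D1:**
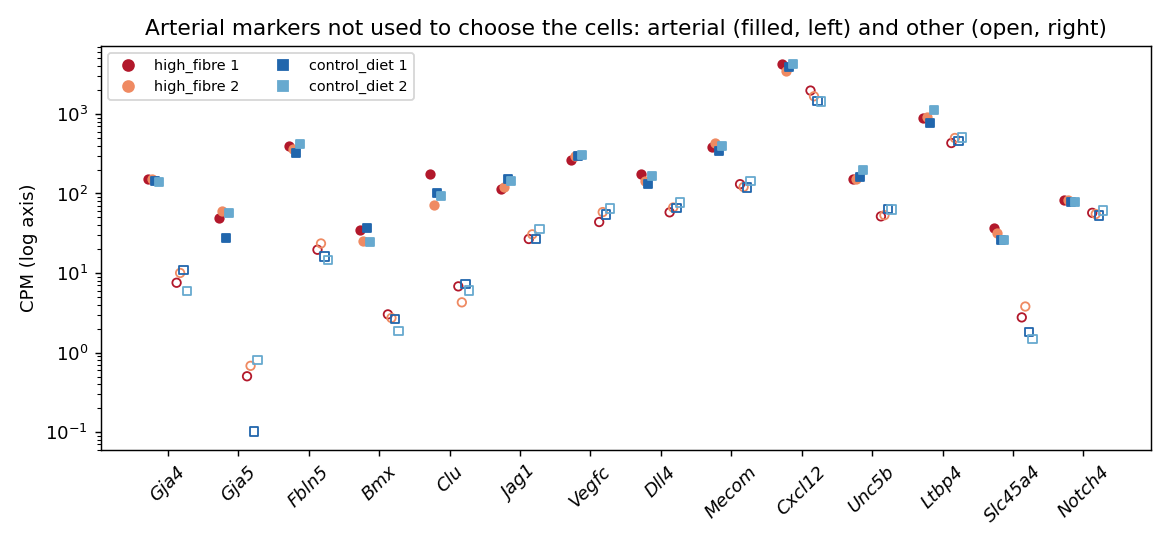
CPM on a log axis for the 14 arterial markers that did not choose the cells, with arterial cells as filled points on the left and other endothelial cells as open points on the right, 1 point per library. Every gene sits higher in arterial cells in all 4 libraries, with Gja5 far apart and Notch4 close together.

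The promoters of both connexins and of Hey2 are shown because both connexin levels followed arterial rank, and because Hey2 carries the letters bound by RBPJ, the DNA partner of Notch. Each window spans 250 bases before to 50 bases after the gene start (RefSeq, GRCm38.p6), and capitals mark GTGGGAA on either strand.
Gja4, chr4:127313990-127314289, minus strand: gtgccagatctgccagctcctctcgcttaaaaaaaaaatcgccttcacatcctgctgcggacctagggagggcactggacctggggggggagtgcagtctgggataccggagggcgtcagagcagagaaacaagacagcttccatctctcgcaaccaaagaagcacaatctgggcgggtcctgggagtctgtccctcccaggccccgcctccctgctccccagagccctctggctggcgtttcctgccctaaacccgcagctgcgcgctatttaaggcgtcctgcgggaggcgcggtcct
Gja5, chr3:97032152-97032451, plus strand: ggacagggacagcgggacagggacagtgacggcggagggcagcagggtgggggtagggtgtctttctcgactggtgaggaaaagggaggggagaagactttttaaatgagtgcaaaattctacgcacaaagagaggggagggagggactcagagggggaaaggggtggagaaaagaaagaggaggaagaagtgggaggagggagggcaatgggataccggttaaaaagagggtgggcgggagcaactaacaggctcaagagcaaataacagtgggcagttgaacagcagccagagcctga
Hey2, chr10:30842734-30843033, minus strand: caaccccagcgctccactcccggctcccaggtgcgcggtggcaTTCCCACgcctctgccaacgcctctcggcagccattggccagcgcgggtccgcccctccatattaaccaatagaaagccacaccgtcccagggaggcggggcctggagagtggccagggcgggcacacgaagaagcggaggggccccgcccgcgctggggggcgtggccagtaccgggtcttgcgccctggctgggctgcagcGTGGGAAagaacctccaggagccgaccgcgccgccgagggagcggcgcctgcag
Neither connexin window holds GTGGGAA, and neither do those of Nrarp and Efnb2. The Hey2 window holds it at 2 places. Of 27025 genes with a window, 7.25% hold the motif in any window, and of 16 Notch pathway genes with a window 2 do (12.5%), Hey2 and the fringe Lfng. The Notch targets Hey1 and Hes1 had no window, so the motif was not looked for there. Hey2 averaged only 2.06 CPM even among the arterial cells of highest rank.

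Of 21 Notch pathway genes, 18 reached 10 CPM. Of these, 10 were higher, the choosing gene Hey1 among them, and 4 were lower in arterial cells in all 4 libraries. Of all genes, 25.9% were higher and 14.8% lower in all 4. Among ligands, Jag1 had 113, 121, 153 and 143 CPM in arterial cells against 26.8, 30.6, 26.9 and 35.7 in the others, and Dll4 had 177, 144, 133 and 166 against 58.0, 66.6, 65.5 and 77.5. Jag2 differed less (mean log2 ratio 0.75 ± 0.18; SD, n = 4 libraries), and Dll1 was near equal (-0.02 ± 0.26). Among receptors, Notch1 had a log2 ratio of 0.73 ± 0.08 and Notch4 one of 0.44 ± 0.10. Rbpj itself was near equal in both classes, at -0.06 ± 0.13. Targets did not go one way: beside the choosing gene Hey1, Nrarp, a Notch-induced feedback inhibitor, had a ratio of 0.54 ± 0.37, while Hes1 was lower in arterial cells in every library at -0.38 ± 0.22.

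Of 25 transcription and guidance factors, 23 reached 10 CPM, of which 13 were higher and 5 lower in arterial cells in all 4 libraries. Of all genes, 25.9% were higher and 14.8% lower. The choosing genes Sox17, Efnb2 and Sema3g are among those counted as higher. Mecom had 380, 429, 342 and 398 CPM in arterial cells, against 131, 121, 118 and 143 in the others. Within the SoxF family Sox18 was higher in arterial cells (mean log2 ratio 0.81 ± 0.10; SD, n = 4 libraries) and Sox7 was lower (-0.46 ± 0.20). The flow-induced factors Klf2 and Klf4 were slightly higher, at 0.25 ± 0.10 and 0.33 ± 0.18. The venous factor Nr2f2 was lower at -0.71 ± 0.27, yet the venous receptor Ephb4 was not (-0.03 ± 0.08). Nrp2, the neuropilin of veins and lymphatics, had 126, 123, 148 and 187 CPM against 362, 383, 407 and 434.

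Of 26 matrix genes, 20 reached 10 CPM, of which 9 were higher and 9 lower in arterial cells in all 4 libraries. Of all genes, 25.9% were higher and 14.8% lower. Fbln5, which assembles elastic fibres (chr12:101746565-101819055, minus strand), had 395, 359, 319 and 414 CPM in arterial cells against 19.6, 23.5, 16.1 and 14.6 in the others, the largest mean log2 ratio, with 10 CPM added to both classes, of the genes with at least 50 CPM in the higher class other than the choosing genes. Fbln2, Fn1 (fibronectin), Ltbp4, Fbn1 and Eln (elastin) were also higher in every library, whereas Emilin1, another gene of elastic fibres, was lower (log2 ratio -0.66 ± 0.32; SD, n = 4 libraries). Of the basement membrane genes, Col4a1 (log2 ratio -0.40 ± 0.04; SD, n = 4 libraries), Col4a2, Lama4, Lamc1 and Nid1 were lower in every library, whereas Lama5 (0.56 ± 0.13) and Lamb2 (0.80 ± 0.21) were higher.

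In the TGF-beta and BMP list, inhibitors, receptors and mediators differed in direction. The inhibitory Smad6 had 132, 177, 75.6 and 116 CPM in arterial cells, against 26.0, 22.7, 15.5 and 18.3 in the others, and Smad7 had a log2 ratio of 0.88 ± 0.18 (SD, n = 4 libraries). The receptors Acvrl1 (0.88 ± 0.06), Eng (0.82 ± 0.11), Tgfbr2 and Bmpr2 were higher too. The mediators Smad1 (-0.67 ± 0.12) and Smad5 (-0.60 ± 0.14) and the ligand Bmp6 (-0.98 ± 0.27) were lower, while the ligand Tgfb2 was higher at 1.87 ± 0.26. Of the list's 20 genes, 18 reached 10 CPM, of which 11 were higher and 4 lower in all 4 libraries, where 25.9% and 14.8% of all genes were.

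Genes of vessel tone also differed in direction. Edn1, the precursor of the constrictor endothelin 1, had 110, 184, 88.5 and 84.3 CPM in arterial cells, against 13.7, 14.7, 17.1 and 16.9 in the others. Ace, which makes angiotensin II, had 82.0, 78.9, 62.8 and 80.4 against 12.5, 17.1, 12.1 and 13.8. The calcium channel Trpv4 had 33.8, 26.7, 49.4 and 43.6 against 6.92, 8.36, 9.74 and 9.13. Nos3, the nitric oxide synthase of endothelium, differed little (log2 ratio 0.15 ± 0.14; SD, n = 4 libraries). The dilator peptide gene Adm, its receptor Calcrl and the endothelin receptor Ednrb were lower in arterial cells in all 4 libraries.

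Capillary genes were lower but not absent. Of 14 capillary markers, 10 were lower in arterial cells in all 4 libraries, where 14.8% of all genes were. The 2 markers Aqp1 and Timp4 were at least 2-fold lower in all 4, where 0.346% of all genes were. The water channel Aqp1 had 193, 266, 325 and 219 CPM in arterial cells against 1544, 1652, 1376 and 1510 in the others. The lipid genes Gpihbp1, Fabp4, Fabp5 and Lpl were lower in every library, with log2 ratios of -0.53 ± 0.03, -0.43 ± 0.04, -1.01 ± 0.09 and -0.74 ± 0.12 (SD, n = 4 libraries). The fatty acid transporter Cd36 was equal (-0.01 ± 0.05), and Cd300lg and the glycerol channel Aqp7 were higher in arterial cells in every library.

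The genes of largest ratio with at least 50 CPM in the higher class also included the arterial marker Clu (clusterin), at 176, 71.8, 101 and 93.0 CPM in arterial cells against 6.79, 4.28, 7.30 and 6.04. Nebl, Col8a1 (a subendothelial collagen), Alox12 (a lipoxygenase), Glul (glutamine synthetase), Eps8l2, Pcsk5 (a proprotein convertase), Kazald1, St8sia6, Vegfc (the lymphatic growth factor) and Rgs10 followed, with mean log2 ratios of 2.20 to 2.76. At the other end the chemokine Cxcl9 had 28.9, 24.9, 32.7 and 9.69 CPM against 153, 181, 144 and 182. Trp53i11, Akap5, Bok, Odc1, Tmsb10 (thymosin beta 10) and Stxbp6 had mean log2 ratios of -2.08 to -1.45. The tip cell gene Apln, the ligand of Aplnr, had 0, 1.78, 9.61 and 0 CPM in arterial cells, against 33.5, 32.9, 47.9 and 56.7 in the others.

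Haemoglobin RNA had the lowest ratios among genes with at least 50 CPM in the higher class. Hbb-bs had 54.7, 31.5, 8.33 and 26.2 CPM in arterial cells against 4089, 1239, 690 and 914 in the others. Haemoglobin UMIs enter a cell's total and so lower its marker fraction, the value that chose the cells. This contrast is therefore tied to the rule. Their part in the ratio was not tested.

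**Figure D2:**
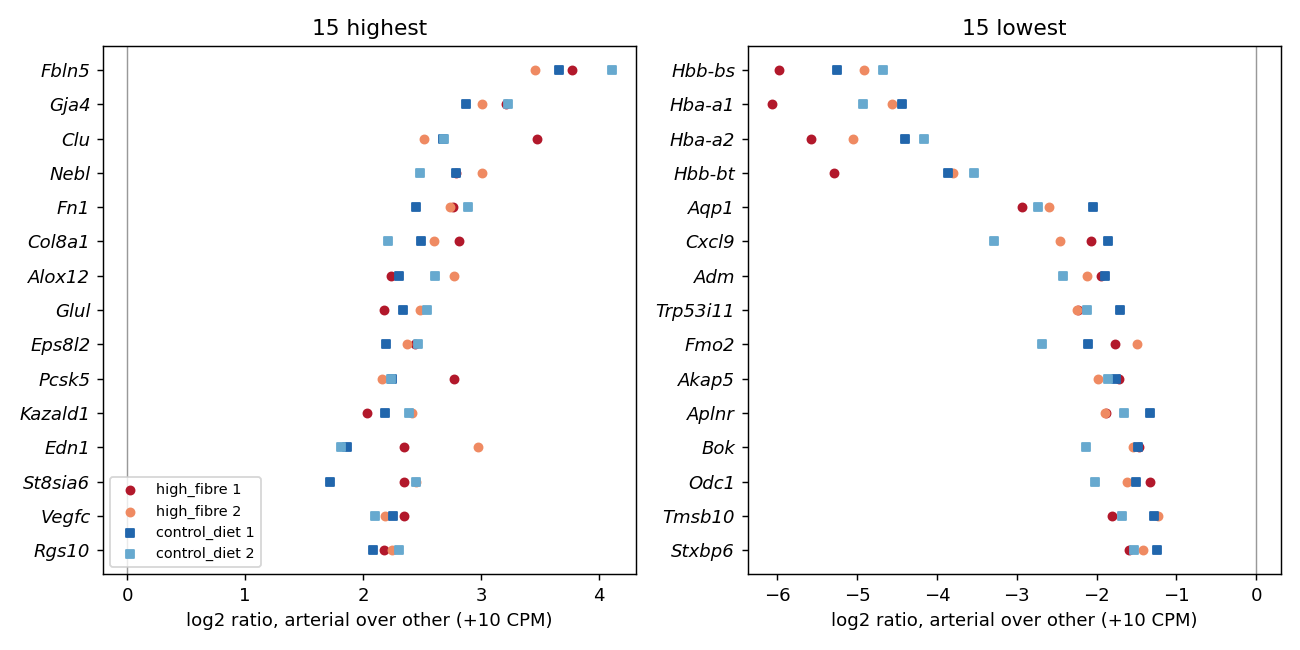
Log2 ratio of arterial over other endothelial cells, with 10 CPM added to both, for the 15 highest and 15 lowest genes by mean ratio among those with at least 50 CPM in the higher class and 1 direction in all 4 libraries, the 6 choosing genes left out, 1 point per library. Fbln5 leads the highest, and the 4 haemoglobin genes lead the lowest.

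The cells varied in a graded way. Arterial cells were split by rank on the marker fraction into 3 equal tiers and set beside the next 15% and the remaining endothelial cells. These values are means of 4 libraries and follow the rank that chose the cells. Gja4 had 272, 136, 34.7, 29.1 and 4.68 CPM from the upper tier down to the remaining cells, and Gja5 had 100.4, 31.2, 13.7, 2.18 and 0.214. Fbln5 had 778, 256, 92.7, 42.3 and 14.0. For these 3 genes the largest steps in CPM lay between the upper and lower arterial tiers, while as ratios Gja4 and Gja5 dropped most below the lower tier. The kinase Bmx (66.5, 12, 13.2, 4.56 and 2.18) and Ace (162, 43.3, 24.5, 14.7 and 13.7) were high in the upper tier alone.

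Other genes had other shapes. The chemokine Cxcl12, a guide of coronary artery growth, was highest in the middle tier, with 3608, 4334, 3849, 2842 and 1402 CPM. The tight junction gene Cldn5 was lowest there, with 966, 565, 607, 769 and 991. The capillary genes Aqp1 (30.2, 228, 488, 953 and 1628) and Lpl (227, 542, 664, 824 and 818) were lowest in the upper tier. The capillary carbonic anhydrase Car4 had 63.0 in the upper tier and 374 in the lower one, close to the 429 of the remaining cells. The apelin receptor Aplnr had 22.4, 113, 195, 270 and 383. Nos3 stayed near level, at 121, 89.5, 107, 101 and 92.4. The lymphatic gene Mmrn1 was concentrated at the lower tier and the next 15% (12.7, 27.2, 133, 138 and 60.8), with 195, 39.2, 0 and 298 in the lower tier of the 4 libraries.

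**Figure D3:**
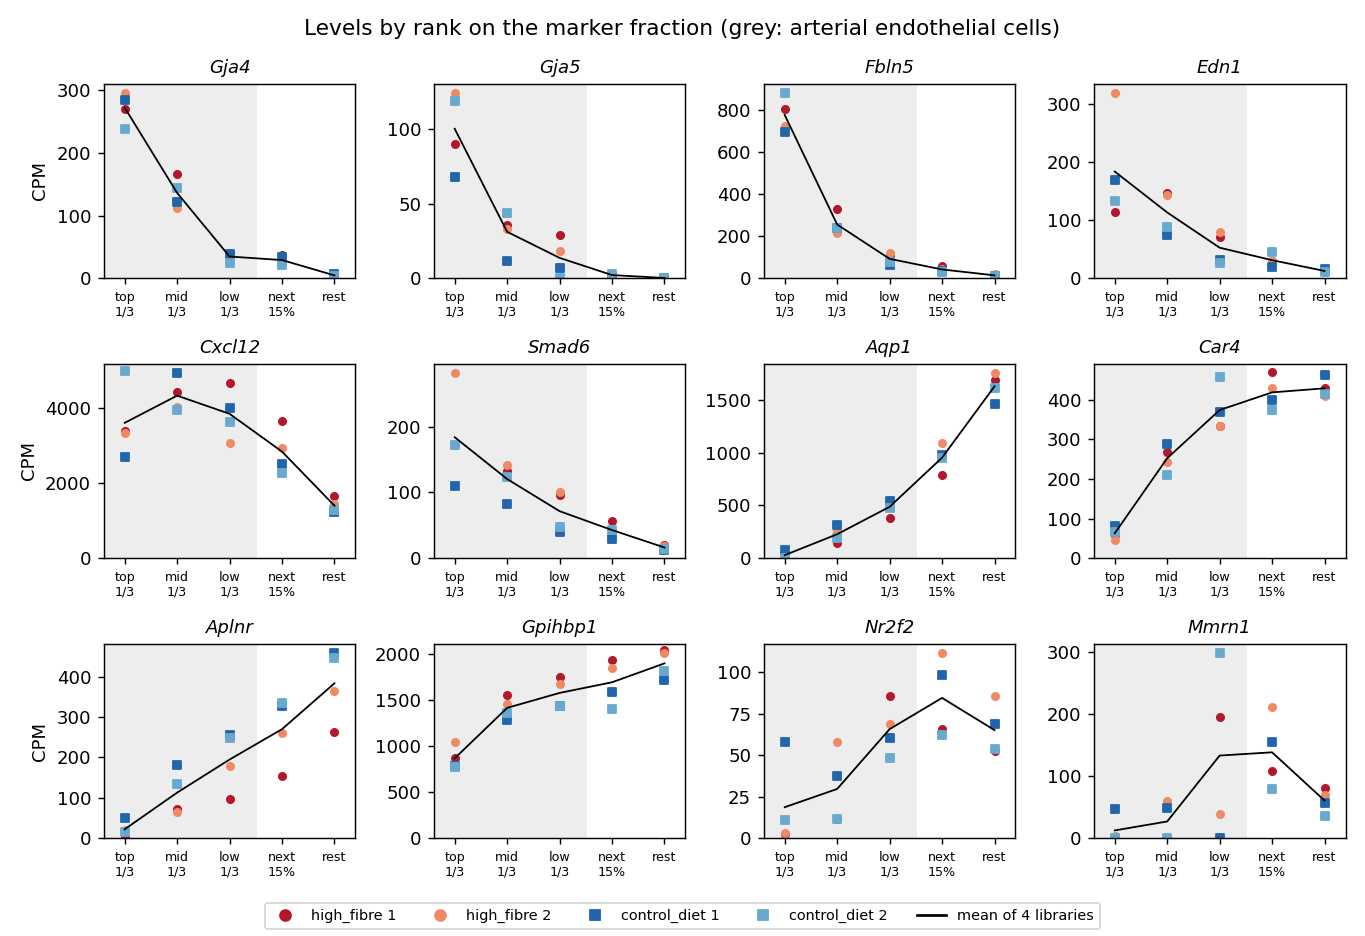
CPM for 12 genes in the upper, middle and lower tier of arterial cells (grey), the next 15% and the remaining endothelial cells, with 1 point per library and a line through the mean of 4 libraries. Gja4, Gja5 and Fbln5 drop steeply within the grey area, Cxcl12 peaks in its middle, and Aqp1 and Aplnr climb across all 5 groups.

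Maternal diet and the number of arterial cells were compared by fixed limits, since the 15% sets the count. After thinning to 1000 UMIs, at least 2 marker UMIs were found in 17.8% and 16.8% of endothelial cells in high_fibre 1 and 2, against 16.1% and 15.4% in control_diet 1 and 2. The exact binomial 95% intervals, which cover counting error only, were 16% to 19.7% and 15.3% to 18.4% in high_fibre, and 14.4% to 17.9% and 13.4% to 17.5% in control_diet. Both high_fibre libraries lay above both control_diet libraries, but the intervals overlapped, and the difference of means was 1.54 percentage points. Without thinning the order turned, with 53.1% and 52.4% in high_fibre and 57.0% and 55.3% in control_diet, where cells had more UMIs. With 1 cut on the marker fraction for all libraries, 17.2% and 15.1% of high_fibre and 14.3% and 12.9% of control_diet endothelial cells were arterial. No test was made, because with 2 libraries a group the smallest two-sided p of an exact permutation test is 0.33.

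In arterial cells, 6 genes rose and 4 fell in high_fibre (edgeR quasi-likelihood test on UMIs summed per library, Benjamini-Hochberg adjusted p under 0.05). This was 0.111% of the 9007 genes tested, 0.0666% higher and 0.0444% lower. The genes that rose were the leukocyte genes Cd52, Laptm5, Ighm and H2-Aa, and Fmo2 and Ttll7. Those that fell were Slc15a2, Aplnr, Col15a1 and Gm47283. None of the 14 arterial markers that did not choose the cells was called.

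The UMIs of the leukocyte genes came from few arterial cells. Cd52, a surface glycoprotein of lymphocytes and macrophages, had 22.5 and 35.6 CPM in high_fibre 1 and 2, against 1.92 and 0.969 in control_diet 1 and 2 (log2 fold 4.18, SE 0.51, edgeR adjusted p = 1.86e-05). In high_fibre 2, however, 45 of its 60 UMIs lay in 1 cell, and in high_fibre 1 10 of 28 did. The call ended when the highest doublet scores were removed (adjusted p = 0.0795) or cells with 3 or more smooth muscle UMIs were left out (0.974). H2-Aa, a chain of MHC class II, had 50.7 and 36.2 against 7.69 and 12.6 (log2 fold 2.13, SE 0.32, edgeR adjusted p = 0.000707). It was found in 14.2% and 11.7% of high_fibre and 3.82% and 5.56% of control_diet arterial cells, with at most 15 UMIs in a cell. It kept its call without any 1 library and in 16 of 20 alternatives, and lost it with the top 10% as arterial cells (adjusted p = 0.0801), with DESeq2 (0.105) and in cells of either sex (0.592 and 0.983).

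Laptm5, a lysosomal protein of blood cells, had 16.1 and 20.2 CPM in high_fibre against 3.20 and 2.91 in control_diet (log2 fold 2.53, SE 0.48, edgeR adjusted p = 0.0119), with 16 of 34 UMIs of high_fibre 2 in 1 cell. Without high_fibre 2 its adjusted p was 0.260. Ighm, the heavy chain of IgM, had 28.1 and 10.7 against 2.56 and 1.94 (log2 fold 2.96, SE 0.59, edgeR adjusted p = 0.0361), and without high_fibre 1 its adjusted p was 0.956. All 4 genes had a higher level in high_fibre in both libraries. Their log2 folds in the other endothelial cells, which edgeR did not call, were 1.15 for Cd52, 0.74 for Ighm, 1.60 for Laptm5 and 1.40 for H2-Aa.

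Marker sums of macrophages and B cells were set beside these 4 genes, and were higher in high_fibre. In arterial cells the 10 macrophage markers summed to 154 and 315 CPM in high_fibre, against 80.8 and 139 in control_diet. High_fibre 1 and control_diet 2 thus lay close together. All 10 markers were detected in every library. Among them C1qa, C1qb and C1qc were limited in each cell by the rule that chose endothelial cells. The 6 B cell markers summed to 120 and 36.2, against 11.5 and 9.69, with Cd79b at 0 in both control_diet libraries. The called gene Ighm is 1 of these 6, so their sum is not independent of its call. T cell markers stayed at or below 10.3. A Cd52 UMI was found in 85.3% to 90.2% of macrophages. The part of leukocyte RNA in these 4 results was not tested. In the annotation Cd52 overlaps Crybg2 on the opposite strand, Slc15a2 overlaps Gm8425 and Col15a1 overlaps Gm12426, and the strand setting of the count is not given in the sources used here.

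Among the genes not of leukocytes, Fmo2, a flavin monooxygenase, had 39.4 and 61.7 CPM in high_fibre, against 19.9 and 15.5 in control_diet (log2 fold 1.50, SE 0.27, edgeR adjusted p = 0.00834). It is a gene of the other endothelial cells, where it had 158 and 191 against 119 and 154. With the top 10% or 20% as arterial cells its log2 fold was 0.77 or 0.46, and without high_fibre 2 it lost its call at 1.14 (adjusted p = 0.118). Ttll7, which adds glutamates to tubulin, had 81.2 and 68.3 against 37.8 and 28.1 (log2 fold 1.14, SE 0.21, edgeR adjusted p = 0.0102), and was found in 30.1% and 22.8% of high_fibre and 16.8% and 14.4% of control_diet arterial cells. Without high_fibre 1 its adjusted p was 0.0716. The groups did not overlap for either gene, as for 17.3% of all genes tested in this direction.

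Aplnr, the receptor of apelin (chr2:85136225-85139923, plus strand), had 59.5 and 86.1 CPM in high_fibre arterial cells, against 167 and 130 in control_diet (log2 fold -1.03, SE 0.18, edgeR adjusted p = 0.00821). It was found in 13.4% and 21.6% of high_fibre and 30.5% and 29.4% of control_diet arterial cells. The groups did not overlap, as for 15.7% of all genes tested in this direction. The call held without any 1 library and in 14 of 20 alternatives, and was lost with the top 10% (adjusted p = 0.0801) or 20% (0.0807) as arterial cells, with DESeq2 (0.426) and in cells of either sex (0.293 and 0.607). In the other endothelial cells Aplnr had 246 and 348 against 436 and 429 (log2 fold -0.55, edgeR adjusted p = 0.483). Aplnr was lower in the upper tier than in the remaining cells, and with 1 cut for all libraries its log2 fold was -0.87 (adjusted p = 0.130). Col15a1, a collagen of capillary basement membranes, had 23.3 and 39.2 against 60.9 and 76.5 (log2 fold -1.09, SE 0.23, edgeR adjusted p = 0.0361), and without high_fibre 1 its adjusted p was 0.373.

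Slc15a2, a transporter of small peptides (chr16:36750177-36784962, minus strand), gave 0 and 1 UMI in high_fibre arterial cells, against 21 and 14 in control_diet, which is 0 and 0.594 against 13.5 and 13.6 CPM (log2 fold -4.98, SE 0.84, edgeR adjusted p = 0.00385). The fitted fold is no bound at such counts. The UMIs came from 16 and 12 control_diet cells, at most 3 in a cell. It was also called lower in the other endothelial cells (1.01 and 0.875 against 9.74 and 8.86 CPM, log2 fold -3.30, adjusted p = 0.0183), and macrophages with a UMI were 6.33% and 7.97% in high_fibre, against 13.6% and 11.6% in control_diet. Without control_diet 1 the arterial adjusted p was 0.160.

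**Figure D4:**
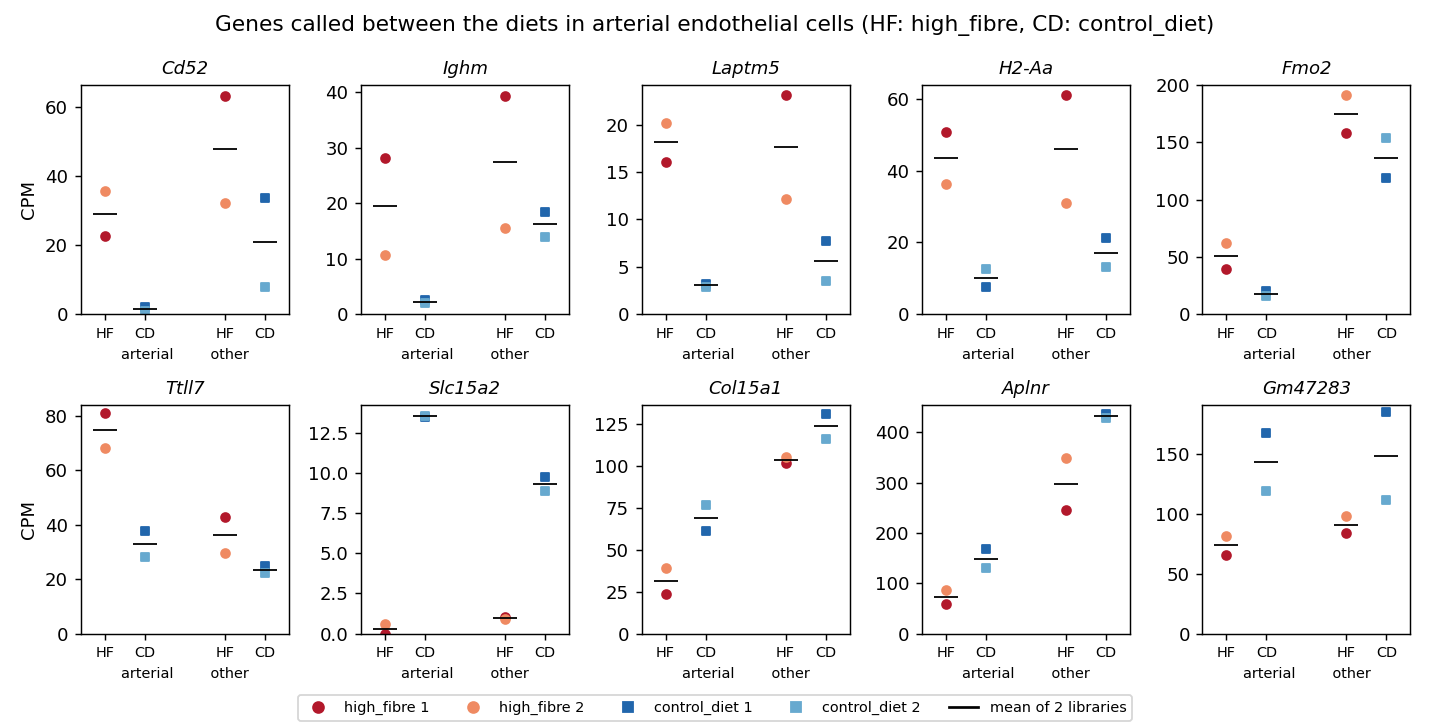
CPM of the 10 genes called between the diets in arterial cells (left pair) and in other endothelial cells (right pair), 1 point per library, with bars at the mean of 2 libraries. High_fibre and control_diet do not overlap in arterial cells for any of the 10, which were picked on these values. Of all genes tested, 17.3% lay higher and 15.7% lower in high_fibre without overlap. Slc15a2 shows a similar step in the other endothelial cells.

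Every library held many cells with only Xist UMIs and many with only Y-linked UMIs, so each drew on animals of both sexes, and the shares differed. Of arterial cells with UMIs of Xist or of Y-linked genes but not both, 60.6% and 40.7% had only Y-linked UMIs in high_fibre, against 17.6% and 43.3% in control_diet, and the other endothelial cells gave 66.2% and 41.1% against 17.4% and 44.3%. Gm47283, which the annotation places on chromosome Y, had 65.9 and 81.9 CPM in high_fibre, against 167 and 119 in control_diet (log2 fold -0.97, SE 0.18, edgeR adjusted p = 0.0102). Its UMIs were found in 26.8% and 31.3% of high_fibre and 53.4% and 43.9% of control_diet arterial cells. It thus did not follow the share of cells with only Y-linked UMIs and is no measure of male cells here. Its log2 fold was -1.13 in arterial cells with Xist and 0.17 in those with Y-linked UMIs, and without control_diet 1 its adjusted p was 0.206. Aplnr had -1.17 and -1.13 in these subsets, H2-Aa 2.08 and 1.65, and Ttll7 0.94 and 1.19. In each subset edgeR called 0 genes, with 266 and 303 at an unadjusted p under 0.05. The part of sex in the other calls was not tested.

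The next genes in order of p, with at least 50 CPM and groups that did not overlap, did not pass the test. Among all genes tested, the high_fibre libraries lay above both control_diet libraries for 17.3% and below both for 15.7%. Nrarp, the Notch feedback gene, had 173 and 124 CPM in high_fibre arterial cells, against 86.5 and 85.2 in control_diet (log2 fold 0.77, SE 0.17, edgeR adjusted p = 0.0713). Edn1 had 110 and 184 against 88.5 and 84.3 (log2 fold 0.77, SE 0.20, edgeR adjusted p = 0.315), and 19 of the 310 UMIs of high_fibre 2 came from 1 cell. Smad6 had 132 and 177 against 75.6 and 116 (log2 fold 0.72, adjusted p = 0.267). The growth factor receptor Fgfr3 had 80.4 and 67.7 against 37.2 and 51.3 (0.76, adjusted p = 0.267), and the LIF receptor Lifr had 142 and 163 against 89.7 and 119 (0.57, adjusted p = 0.320).

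The remaining genes of this group did not pass the test either. The fibroblast genes Gsn and Dcn had log2 folds of 0.73 and 0.74 in arterial cells and of 0.70 and 0.77 in the others. Dcn was limited in each cell by the rule that chose endothelial cells. All 6 fibroblast markers tested were above 0 in arterial cells (median 0.64), and their part was not tested. The interferon-induced Rsad2 had 219 and 235 CPM in high_fibre arterial cells, against 331 and 336 in control_diet (log2 fold -0.56, edgeR adjusted p = 0.138), and -0.43 in the others. Calr (calreticulin), the phosphatase Ptp4a3, the cold-induced Rbm3, Ywhag, Ifi27l2a and the Y-linked Ddx3y had adjusted p of 0.245 to 0.320.

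Across the pathway lists, calls were few, as among all 9007 genes tested, of which 0.111% were called. At that share a list of this size without a call says little about its pathway. None of 19 Notch genes tested was called (11 above and 8 below 0, median log2 fold 0.02, against -0.0018 for all genes tested), nor any of the 23 transcription and guidance factors, 21 matrix genes, 18 TGF-beta and BMP genes, 14 tone genes, 15 junction genes, 16 fatty acid genes or 10 adhesion genes. Notch ligands gave 0.11 for Dll4, -0.34 for Jag1 and 0.26 for Jag2. The medians of these lists lay between -0.01 and 0.09. MHC class II was the exception, with 4 of 4 genes tested above 0 and a median of 1.66, of which H2-Aa was called.

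Stress and interferon lists leaned without a call. All 12 heat shock genes were above 0 (median log2 fold 0.44 in arterial cells and 0.58 in the others), with high_fibre 1 apart: Hsp90aa1 had 820 and 300 CPM in high_fibre, against 338 and 220 in control_diet, and Hsph1 had 132 and 32.6 against 16.7 and 32.9. Of 20 interferon-stimulated genes 17 were below 0 in arterial cells, with a median of -0.21, and 19 were in the others, with a median of -0.29. The immediate early genes, which dissociation can induce, had a median of -0.26, and the 9 glucocorticoid-responsive genes one of 0.16, in each case with none called.

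**Figure D5:**
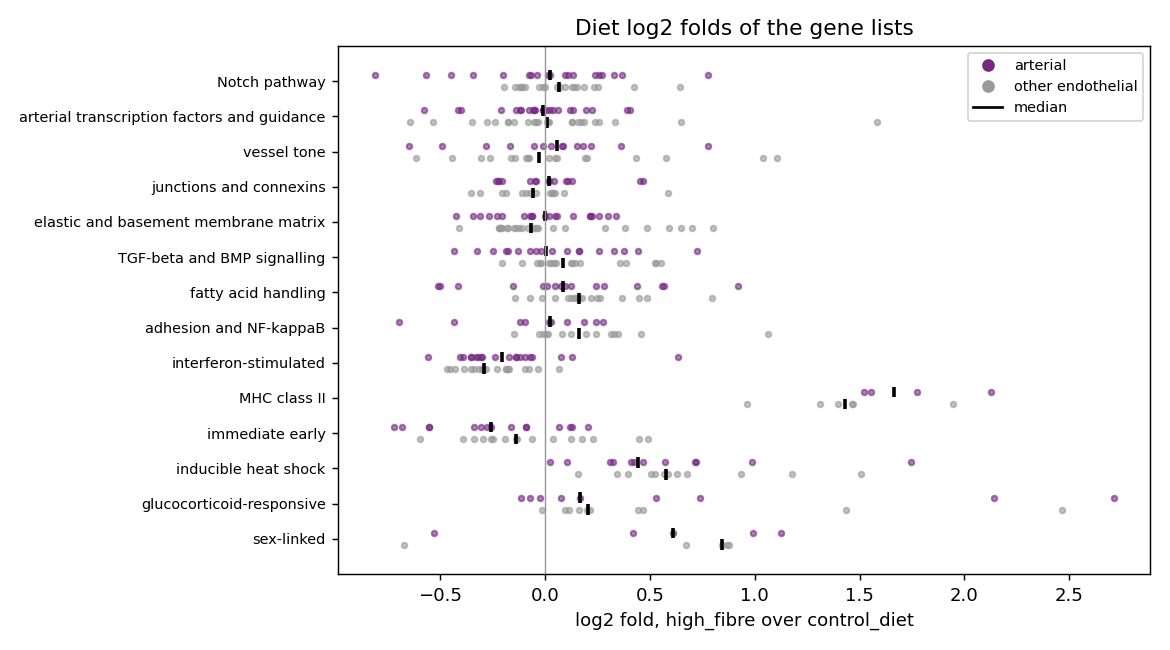
Log2 fold of high_fibre over control_diet for each tested gene of the 14 lists, in arterial cells (purple, upper row of each list) and other endothelial cells (grey, lower row), with the list median as a black bar. Most lists centre near 0, while MHC class II and heat shock lie above 0 and the interferon list below 0 in both classes.

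The diet effect itself was compared between arterial and other endothelial cells within each library (limma). Of 8998 genes, 1 was called (0.0111%), Cxcl12, with a difference of log2 folds of -0.41 (SE 0.08, limma adjusted p = 0.0385). Arterial cells had 4199 and 3491 CPM in high_fibre 1 and 2, against 3909 and 4211 in control_diet, and the groups overlapped. The other endothelial cells had 1968 and 1668 against 1446 and 1441, without overlap (log2 fold 0.33, edgeR adjusted p = 0.652). So the ratio of arterial to other cells was smaller in both high_fibre libraries. The call was lost without high_fibre 1 (limma adjusted p = 0.0653), high_fibre 2 (0.0628) or control_diet 2 (0.237), without barcodes shared by libraries (0.0719), and with the top 10% (0.375) or 20% (0.597) as arterial cells. Edn1 had a difference of 0.97 (limma adjusted p = 0.168), and Aplnr one of -0.47 (0.363).

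In the other endothelial cells 5 of 12031 genes were called between the diets (0.0416%), with Mt1, C1qa, Cryab and Lgals3 higher (0.0332%) and Slc15a2 lower (0.00831%) in high_fibre. Slc15a2 was thus called in both classes. C1qa was limited in each cell by the rule that chose endothelial cells.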

How the data were processed

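The authors deposited raw counts of UMIs, whole numbers for each gene in each cell barcode, for 4 heart libraries, made with Cell Ranger 3.1.0 on the mm10 build, per the submitters' processing notes. No barcode held fewer than 500 UMIs, and 31053 genes were listed. The cells and the gene and marker lists were chosen with earlier results of these data known.

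Counts were summed per library over arterial and over other endothelial cells, and levels are given as CPM, UMIs scaled to 1000000 of that sum. Diet was tested in each class with edgeR 4.0.16 (quasi-likelihood, robust, TMM scaling, filterByExpr with a minimum count of 10, Benjamini-Hochberg adjustment, threshold 0.05). The difference of diet effects was tested with limma 3.58.1 on the within-library difference of log2 values (prior count 2). Arterial over other log2 ratios added 10 CPM and had no test. The labels do not say that libraries are separate animals, so p-values measure the spread between libraries.

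Thinning drew 1000 UMIs per cell without replacement (seed 11). Doublets were not removed in the results as given. As an alternative, Scrublet in scanpy 1.11.5 scored each library, and the highest scores were left out at 0.8% per 1000 barcodes. Macrophages for comparison were kept cells with at least 10 C1q UMIs and 0 of Pecam1, Cdh5 and Egfl7.

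Named genes were all diet calls, filled up to 24 by smallest p among genes with at least 50 CPM and groups that did not overlap, the difference call, the 15 highest and 15 lowest ratios of arterial to other cells among genes with at least 50 CPM in the higher class and 1 direction in 4 libraries, and any gene of the lists. The alternatives were other size factors, filters, tests (DESeq2 1.42.0, limma-voom) and cell choices, cells of 1 sex, each library left out, and a replicate block. Leaving out shared barcodes, smooth muscle RNA or lymphatic RNA was chosen after seeing the data. Gene positions come from GENCODE M21 on GRCm38 and promoter windows from RefSeq.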

Additional observations from a re-analysis of the deposited data

Results flagged for a closer look

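Cxcl12, the chemokine of arterial endothelium, was the gene whose diet effect differed between the classes by a test of the difference itself. The log2 fold of high_fibre over control_diet was 0.41 lower in arterial than in other endothelial cells (difference -0.41, SE 0.08, limma adjusted p = 0.0385). The log2 fold was -0.08 in arterial cells and 0.33 in the others, and neither was called by edgeR (adjusted p = 0.997 and 0.652). The log2 ratio of arterial to other cells was 1.09 and 1.06 in high_fibre 1 and 2, against 1.43 and 1.54 in control_diet 1 and 2. With the top 20% as arterial cells the difference was -0.28 (limma adjusted p = 0.597).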

How the results depend on the processing

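Diet calls in arterial cells numbered 10, and 42 without the low-count filter, 2 with DESeq2 (1 of the 10 among them), 14 with doublets removed (7 of the 10), 28 to 50 with 1 library left out (7 to 10 of the 10), 0 with the top 10% and 4 with the top 20% as members (3 of the 10), 4 with one cut for all libraries (4 of the 10), 16 without cells holding smooth muscle UMIs (8 of the 10), 4 without cells holding lymphatic UMIs (4 of the 10), and 0 in cells of either sex. The top 10% had 355 genes at an unadjusted p under 0.05, and 8 genes were called by limma-voom. In the other endothelial cells the 5 calls became 228 without the filter, 17 with DESeq2, 0 with limma-voom (676 at an unadjusted p under 0.05), 9 with doublets removed and 13 to 102 with 1 library left out. For the difference of diet effects the 1 call became 0 without the filter, with the top 20%, with one cut and with cells of at least 2000 UMIs (644, 461, 384 and 398 at an unadjusted p under 0.05), 2 with the top 10%, 3 with doublets removed, 6 with an edgeR diet-by-class term and 11 to 46 with 1 library left out. Where 1 library was left out, the lone library of that group was assumed to vary like the other group. The fitted log2 fold of Gm47283 turned to 0.17 in cells with Y-linked UMIs. Of 485 gene values under the alternatives, 71 lost a call and 48 gained one. The share difference of 1.54 points was 2.81 with at least 1 marker UMI, turned to -3.38 without thinning, and was 1.04 to 2.04 with 1 library left out. The cause of these changes was not tested. With a replicate block, 61 arterial genes, 89 other genes and 14 differences were called. After the mean of each diet group was subtracted from log2 CPM, high_fibre 1 and control_diet 1 correlated at 0.101 in arterial and 0.215 in other cells. With 2 libraries a group, the second pair mirrors the first and adds no information. The numbers were not taken to pair the libraries. Arterial libraries summed to 1032303 to 1684770 UMIs, and genes below the low-count filter were not tested.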
